A study of Homo sapiens with 15 samples.

Results

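The genes described are those that build and modify long-chain fatty acids: ACSS2, ACLY and ME1, ACACA and FASN, the elongase genes ELOVL6 and ELOVL5, and the desaturase genes SCD and FADS2. They were taken by gene symbol, with the probe set of highest mean signal where a gene had several. Of the 10 symbols in the list, 9 were found, each with 1 probe set, among 17687 genes tested; FADS1 is not analysed here. The levels are log2 values, so a difference of 1 is a 2.00-fold change. All 15 arrays held RNA of C42B, an established castration-resistant human prostate cancer line derived from LNCaP. The cells had grown for 3 days in medium with serum and were then exposed to drug or vehicle for 6 h. The groups were 10 µM enzalutamide with 15 µM PF-543 (3 arrays), 15 µM PF-543 (3 arrays), 10 µM enzalutamide with 15 µM ABC294640 (3 arrays), 15 µM ABC294640 (1 array), 10 µM enzalutamide (2 arrays) and 0.125% dimethyl sulfoxide as vehicle (DMSO, 3 arrays). The vehicle content of the treated wells is not stated in the labels. Enzalutamide is an androgen receptor antagonist, PF-543 blocks sphingosine kinase 1, and ABC294640 (opaganib) blocks sphingosine kinase 2. Nothing in the labels tells if the replicates were grown separately; p-values cover only the spread between these arrays, which may be technical.

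Fatty acid synthesis starts from acetyl-CoA, which ACLY makes from citrate and ACSS2 from acetate in the cytosol and nucleus. Acetyl-CoA carboxylase (ACACA) turns it into malonyl-CoA, fatty acid synthase (FASN) builds palmitate with NADPH, part of which comes from malic enzyme (ME1), and elongases and desaturases then lengthen the chain and insert double bonds. Most of these genes are targets of the sterol regulatory element-binding proteins (SREBPs), transcription factors held in the endoplasmic reticulum by INSIG proteins when sterols are plentiful. In prostate cancer cells the same genes are known to respond to androgen, and sphingosine kinases phosphorylate sphingosine, itself a breakdown product of lipids made with fatty acids.

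The sequences upstream of ACSS2, ACLY, ELOVL6, SCD and ELOVL5 are shown because they cover supply, elongation and desaturation, with 3 genes that passed the test for PF-543 (ACSS2, ELOVL6 and SCD) and a pair that did not (ACLY and ELOVL5). Each is the 250 bases before the gene's most upstream start in RefSeq (GRCh38.p14), 5′ to 3′ on the gene's own strand, and capitals mark matches to the motifs searched. They lie at chr20:34874739-34874988 (plus strand) for ACSS2, chr17:41919023-41919272 (minus strand) for ACLY, chr4:110198616-110198865 (minus strand) for ELOVL6, chr10:100346983-100347232 (plus strand) for SCD and chr6:53348951-53349200 (minus strand) for ELOVL5.
ACSS2: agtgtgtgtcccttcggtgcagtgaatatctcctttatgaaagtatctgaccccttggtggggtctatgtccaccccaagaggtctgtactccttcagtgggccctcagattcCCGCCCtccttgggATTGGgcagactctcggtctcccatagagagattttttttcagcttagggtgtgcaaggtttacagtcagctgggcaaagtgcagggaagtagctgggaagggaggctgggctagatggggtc
ACLY: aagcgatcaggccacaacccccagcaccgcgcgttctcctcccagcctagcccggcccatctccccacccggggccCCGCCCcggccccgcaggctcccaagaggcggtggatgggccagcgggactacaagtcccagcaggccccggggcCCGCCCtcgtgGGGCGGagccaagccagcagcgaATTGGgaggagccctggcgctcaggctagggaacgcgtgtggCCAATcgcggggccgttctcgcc
ELOVL6: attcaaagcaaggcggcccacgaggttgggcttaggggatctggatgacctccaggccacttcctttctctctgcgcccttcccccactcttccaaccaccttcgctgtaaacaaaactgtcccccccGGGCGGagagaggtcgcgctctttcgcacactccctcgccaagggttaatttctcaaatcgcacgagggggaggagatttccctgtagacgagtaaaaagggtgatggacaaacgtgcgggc
SCD: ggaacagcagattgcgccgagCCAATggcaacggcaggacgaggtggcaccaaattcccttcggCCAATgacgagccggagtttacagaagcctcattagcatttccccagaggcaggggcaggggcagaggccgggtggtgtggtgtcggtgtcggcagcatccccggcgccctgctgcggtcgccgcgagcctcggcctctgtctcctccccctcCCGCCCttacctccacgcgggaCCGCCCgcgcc
ELOVL5: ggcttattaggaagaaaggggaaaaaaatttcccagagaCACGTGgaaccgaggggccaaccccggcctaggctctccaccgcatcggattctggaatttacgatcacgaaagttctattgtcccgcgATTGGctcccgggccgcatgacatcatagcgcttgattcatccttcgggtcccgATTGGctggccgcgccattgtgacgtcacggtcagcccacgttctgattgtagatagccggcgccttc

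Windows of 9 genes were searched on both strands, with FADS1 among them and FASN not used here. Each of these genes gave 1 window, at its most upstream start, while all 35116 windows include several starts of some genes. The shares set side by side are thus not of windows chosen alike. The CCAAT box CCAAT, bound by NF-Y, lay in 4 of 9 windows and in 32% of all 35116 windows of that length. The GC box GGGCGG, bound by Sp1, lay in 7 of 9 windows and in 42.6% of all. The E-box CACGTG lay in 1 of 9, that of ELOVL5, and in 6.34% of all. The sterol regulatory element TCACNCCAC lay in 0 of 9 and in 0.883% of all, which says only that these letters are not in these windows. In the printed windows no matches overlap. ACLY holds 2 CCAAT boxes and 3 GC boxes, SCD 2 of each, ACSS2 1 of each, ELOVL6 1 GC box, and ELOVL5 2 CCAAT boxes and the E-box. The window of FADS2 holds none of these motifs, and those of ME1 and ACACA hold 1 and 5 GC box matches, with overlaps in ACACA.

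The 3 DMSO arrays stood apart from the 12 arrays of treated cells over all genes. On the first principal component, with 15.3% of the variance, they lay at 18.9 to 24.8 and the treated arrays at -11.6 to 0.03. Among the 241 brightest genes, with a mean of at least 15, the median difference from DMSO was 0.05 in enzalutamide with PF-543, 0.03 in PF-543, 0.04 in enzalutamide with ABC294640 and 0.04 in enzalutamide, against 0.00 between enzalutamide with PF-543 and enzalutamide alone. ACLY, ELOVL5, SCD and FADS2 are themselves bright genes, and the part of that shift in their differences from DMSO was not tested. Each gene's value for enzalutamide with PF-543 against enzalutamide is given beside the value against DMSO. That difference uses no DMSO array, but its SE, interval and adjusted p use the spread pooled over all 15 arrays. On the labelled cell type, 6 measured prostate genes averaged 9.62 (TMPRSS2) to 15.9 (KLK3), and 7 measured markers of other cell types averaged 3.71 (CHGA) to 8.32 (VIM).

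**Figure D1:**
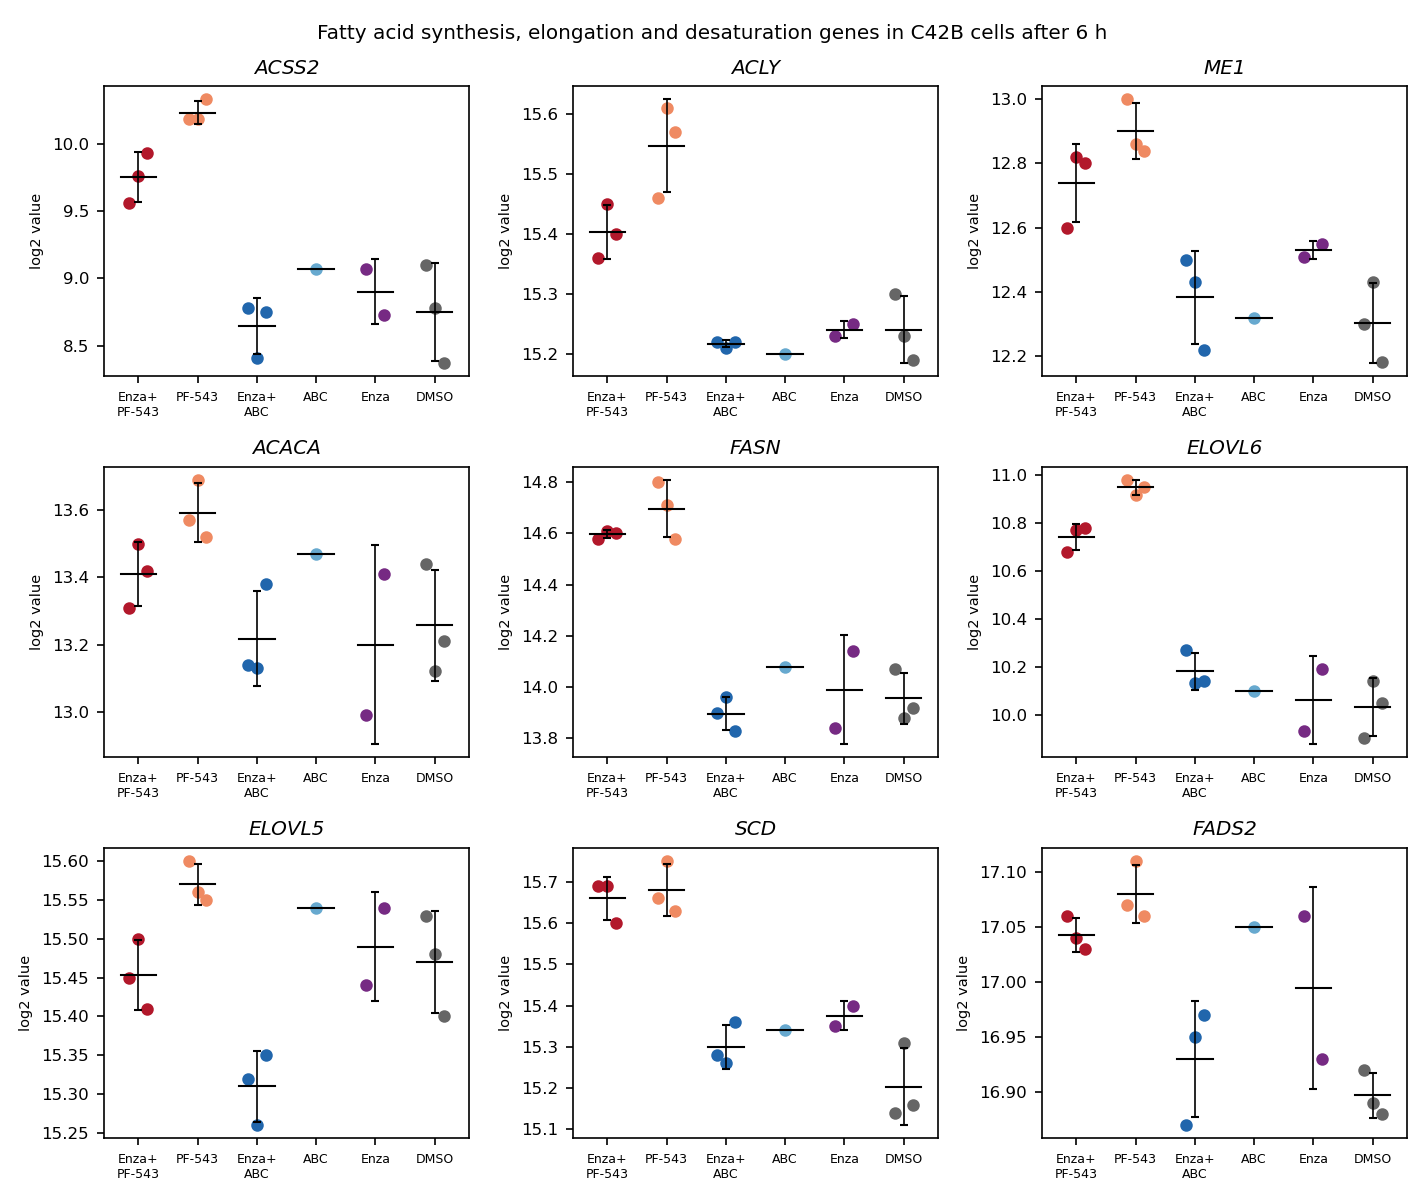
Log2 level (y axis) of each of the 9 genes on all 15 arrays by group (x axis), with points for arrays, lines for group means and error bars for the SD. The PF-543 group has the highest mean of every gene, and for ACSS2, ACLY, ME1, FASN, ELOVL6 and SCD all 6 arrays with PF-543 lie above the 9 others. How many of all genes show that separation was not counted.

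PF-543 raised 5 of the 9 genes against DMSO: ACSS2, FASN, ELOVL6, SCD and ME1, by 1.39-fold to 2.79-fold in limma's test with adjusted p under 0.05. Of all genes, 0.362% passed in that direction. The other 4 genes, ACLY, ACACA, FADS2 and ELOVL5, had positive differences that did not pass. The median difference of the 9 was 0.48, against -0.01 over all genes, and every PF-543 array lay above every DMSO array for 9 of 9 genes, as it did for 10.2% of all genes. ACSS2, FASN and ELOVL6 passed whichever of the arrays was left out; in a fit to the 6 arrays alone ELOVL6 passed (adjusted p = 0.0479), and ACSS2 (0.0591) and FASN (0.0918) did not.

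ACSS2, the enzyme that makes acetyl-CoA from acetate, had the largest difference of the 9. Its level was 10.18, 10.18 and 10.33 in PF-543, against 9.10, 8.78 and 8.37 in DMSO. With enzalutamide present it was 9.56, 9.76 and 9.93 in enzalutamide with PF-543, against 9.07 and 8.73 in enzalutamide alone. Neither pair of groups overlapped, and the DMSO arrays spread more (SD 0.37) than the PF-543 arrays (SD 0.09). ACSS2 was higher in PF-543 than in DMSO by 1.48 (SE 0.17, 95% interval 1.10 to 1.86, adjusted p = 0.00231). In enzalutamide with PF-543 it was 0.85 above enzalutamide (SE 0.20, interval 0.43 to 1.27, adjusted p = 0.271), which did not pass. ACSS2 read 8.78, 8.41 and 8.75 in enzalutamide with ABC294640 and 9.07 on the single ABC294640 array, all within the DMSO range.

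ACLY, the ATP-citrate lyase that supplies most cytosolic acetyl-CoA from glucose carbon, read 15.46, 15.61 and 15.57 in PF-543, against 15.30, 15.23 and 15.19 in DMSO. It was 15.36, 15.45 and 15.40 in enzalutamide with PF-543, against 15.23 and 15.25 in enzalutamide. Both pairs were free of overlap, but the differences were small: 0.31 against DMSO (SE 0.08, adjusted p = 0.0948) and 0.16 against enzalutamide (SE 0.09, adjusted p = 0.7). Its levels in enzalutamide with ABC294640 were 15.22, 15.21 and 15.22, and the ABC294640 array gave 15.20.

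ME1, the cytosolic malic enzyme that regenerates NADPH, had 13.00, 12.86 and 12.84 in PF-543, against 12.30, 12.43 and 12.18 in DMSO. It had 12.60, 12.82 and 12.80 in enzalutamide with PF-543, against 12.51 and 12.55 in enzalutamide. The groups of each pair were separate, by a wider gap without enzalutamide. The difference was 0.60 against DMSO (SE 0.11, adjusted p = 0.0297) and 0.21 against enzalutamide (SE 0.12, interval -0.04 to 0.46, adjusted p = 0.716). In enzalutamide with ABC294640 ME1 was 12.50, 12.43 and 12.22, and on the ABC294640 array 12.32. The ME1 call was lost when any 1 of the 6 PF-543 and DMSO arrays was left out, at adjusted p = 0.0574 without DMSO replicate 2 to 0.115 without PF-543 replicate 2.

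ACACA, the carboxylase that makes malonyl-CoA, read 13.57, 13.69 and 13.52 in PF-543, against 13.44, 13.12 and 13.21 in DMSO. With enzalutamide it read 13.31, 13.50 and 13.42 in the combination with PF-543, against 12.99 and 13.41 in enzalutamide. The PF-543 arrays cleared the highest DMSO array by little, and the groups with enzalutamide overlapped. Neither difference passed: 0.34 against DMSO (SE 0.13, adjusted p = 0.231) and 0.21 against enzalutamide (SE 0.14, adjusted p = 0.775). ACACA was 13.14, 13.13 and 13.38 in enzalutamide with ABC294640, and 13.47 in ABC294640, near the PF-543 range.

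FASN, which assembles palmitate from malonyl-CoA, had 14.80, 14.71 and 14.58 in PF-543, against 14.07, 13.88 and 13.92 in DMSO. It had 14.58, 14.61 and 14.60 in enzalutamide with PF-543, against 13.84 and 14.14 in enzalutamide. Both groups with PF-543 were well clear of all other arrays and overlapped each other. FASN rose by 0.74 against DMSO (SE 0.10, adjusted p = 0.00648), a 1.67-fold change. The difference against enzalutamide was nearly as large, at 0.61 (SE 0.11, interval 0.37 to 0.85), but had an adjusted p of 0.14. The arrays of enzalutamide with ABC294640 read 13.90, 13.96 and 13.83, and the ABC294640 array 14.08, at the level of DMSO.

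ELOVL6, which lengthens palmitate to stearate, had the smallest p of the 9 genes. Its level was 10.98, 10.92 and 10.95 in PF-543, against 9.90, 10.14 and 10.05 in DMSO. In enzalutamide with PF-543 it was 10.68, 10.77 and 10.78, against 9.93 and 10.19 in enzalutamide. The gap between PF-543 and DMSO arrays was several times the spread within either group. ELOVL6 rose by 0.92 against DMSO (SE 0.10, adjusted p = 0.000705, 1.89-fold). Its difference against enzalutamide was 0.68 (SE 0.11, interval 0.45 to 0.91, adjusted p = 0.0565), just outside the threshold. It passed there when the dimmest 25% of genes were left out (adjusted p = 0.026). ELOVL6 was 10.27, 10.13 and 10.14 in enzalutamide with ABC294640, and 10.10 in ABC294640.

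ELOVL5, the elongase of polyunsaturated chains, had the smallest difference for PF-543. It read 15.60, 15.56 and 15.55 in PF-543, against 15.53, 15.48 and 15.40 in DMSO, and 15.45, 15.50 and 15.41 in enzalutamide with PF-543, against 15.44 and 15.54 in enzalutamide. The PF-543 arrays lay just above the DMSO arrays, and the groups with enzalutamide overlapped. The difference was 0.10 against DMSO (SE 0.08, interval -0.07 to 0.27, adjusted p = 0.575) and -0.04 against enzalutamide (SE 0.09, adjusted p = 0.952). ELOVL5 was lowest in enzalutamide with ABC294640, at 15.32, 15.26 and 15.35, and read 15.54 in ABC294640.

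SCD, the desaturase that makes oleate and palmitoleate, had 15.66, 15.75 and 15.63 in PF-543, against 15.14, 15.31 and 15.16 in DMSO. It had 15.69, 15.69 and 15.60 in enzalutamide with PF-543, against 15.35 and 15.40 in enzalutamide. The groups with PF-543 overlapped each other and lay above the rest. SCD rose by 0.48 against DMSO (SE 0.08, adjusted p = 0.0279, 1.39-fold), while the difference against enzalutamide, 0.285 (SE 0.09, interval 0.09 to 0.48), had an adjusted p of 0.459. Its call against DMSO was lost without DMSO replicate 1 or 3 or any 1 PF-543 array, at adjusted p = 0.0721 to 0.115. SCD read 15.28, 15.26 and 15.36 in enzalutamide with ABC294640, and 15.34 in ABC294640.

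FADS2, the delta-6 desaturase that opens the path to long polyunsaturated fatty acids, had levels from 16.87 to 17.11 on all arrays, close to the highest value of any probe set (17.42 to 17.73 by array). It read 17.07, 17.11 and 17.06 in PF-543, against 16.92, 16.89 and 16.88 in DMSO, and 17.06, 17.04 and 17.03 in enzalutamide with PF-543, against 17.06 and 16.93 in enzalutamide. The PF-543 and DMSO arrays were separate, and the groups with enzalutamide overlapped. The difference was 0.18 against DMSO (SE 0.08, adjusted p = 0.271), 0.09 after quantile normalization, and 0.05 against enzalutamide (SE 0.08, adjusted p = 0.927). FADS2 was 16.87, 16.95 and 16.97 in enzalutamide with ABC294640, and 17.05 in ABC294640.

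**Figure D2:**
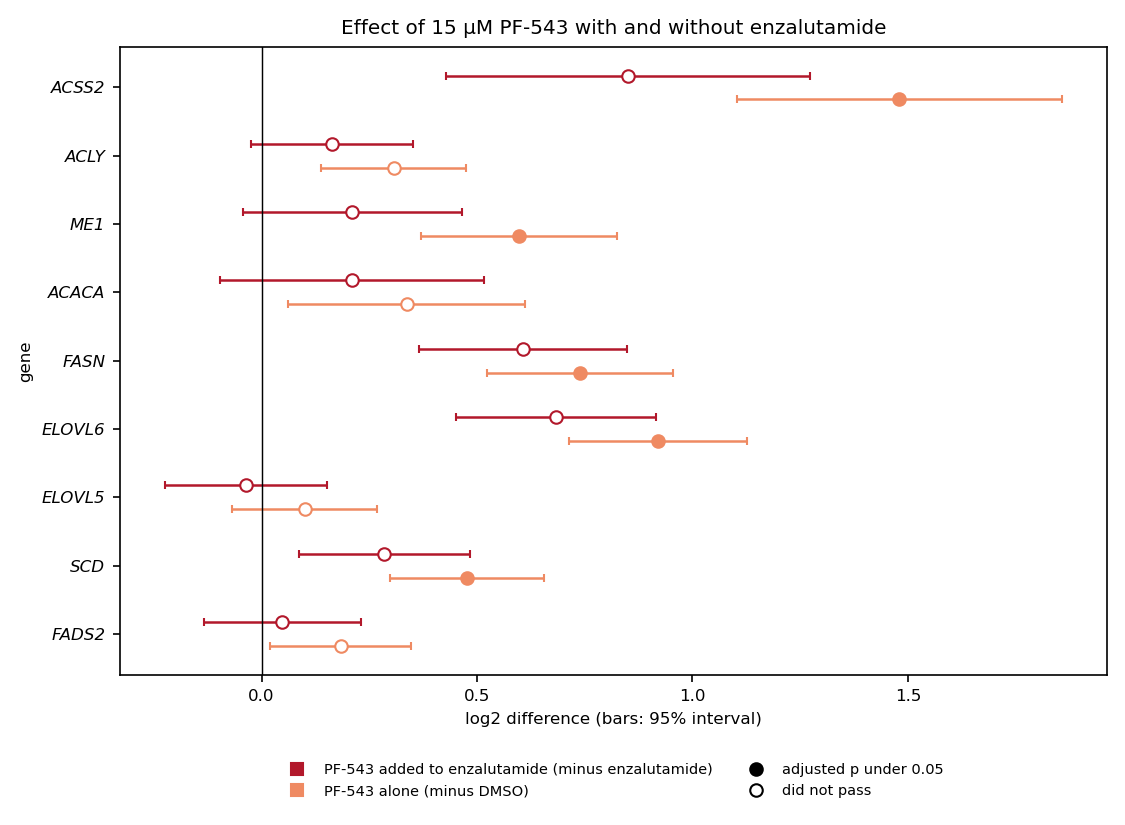
Log2 difference (x axis) of each gene (rows) for PF-543 minus DMSO and for enzalutamide with PF-543 minus enzalutamide, with 95% intervals from limma as bars. The differences run from 0.10 to 1.48 without enzalutamide and from -0.04 to 0.85 with it, and ACSS2, ELOVL6 and FASN are the largest in both.

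Set side by side, the effect of PF-543 was smaller in cells that also received enzalutamide for all 9 genes, but the difference between the effects was not past the threshold for any. None of the 9 passed for enzalutamide with PF-543 against enzalutamide, where 0.0283% of all genes (5 genes) passed as higher and 7.83% had an unadjusted p under 0.05 in either direction. In that comparison 8 of 9 differences were above 0 (51.2% of all genes) and 6 genes had no overlap as higher (12.8% of all genes). The median was 0.21, against 0.005 over all genes. The interaction term was most negative for ACSS2 (-0.63, interval -1.20 to -0.06, adjusted p = 0.588) and ME1 (-0.39, interval -0.73 to -0.05, adjusted p = 0.582). It was between -0.24 and -0.13 for the other 7, and passed for 0 of all genes (8.07% at an unadjusted p under 0.05). With 2 enzalutamide arrays these terms have wide intervals. The interaction was above 0 for 52.1% of all genes. It also uses the DMSO arrays, which stood apart from the treated arrays over all genes. The part of that shift in the interaction was not tested.

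Averaged over cells without and with enzalutamide, the PF-543 effect passed for 4 of 9 genes, beside 0.294% of all genes as higher. These were ACSS2 (1.17, SE 0.13, adjusted p = 0.00104), ELOVL6 (0.80, SE 0.07, adjusted p = 0.000143), FASN (0.67, SE 0.07, adjusted p = 0.00103) and SCD (0.38, SE 0.06, adjusted p = 0.0176). ME1 missed the threshold at 0.40 (SE 0.08, adjusted p = 0.0532), and ACACA, ACLY, FADS2 and ELOVL5 were at 0.27, 0.235, 0.12 and 0.03. The SCD call was lost without enzalutamide replicate 1 (adjusted p = 0.0697) or 2 (0.0763), without replicate 1 (0.0536) or 2 (0.056) of enzalutamide with PF-543, and without PF-543 replicate 2 (0.0558).

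Enzalutamide with PF-543 against DMSO passed for ACSS2 at 1.0 (SE 0.17, adjusted p = 0.0147), ELOVL6 at 0.71 (SE 0.10, adjusted p = 0.00298), FASN at 0.64 (SE 0.10, adjusted p = 0.00814) and SCD at 0.46 (SE 0.08, adjusted p = 0.0172). Of all genes 1.12% passed as higher there. ME1 was at 0.44 (adjusted p = 0.0522), and the other 4 lay between -0.02 (ELOVL5) and 0.16 (ACLY). In a fit to the 6 arrays alone none passed (adjusted p of 0.06 to 0.114 for the 4). This comparison shares its DMSO arrays with PF-543 against DMSO, so the values are side by side and not independent. The ACSS2 call was lost without replicate 2 (adjusted p = 0.0561) or 3 (0.0562) of the combination, and the SCD call without DMSO replicate 1 (0.0522) or replicate 1 (0.064) or 2 (0.071) of the combination.

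Enzalutamide alone changed none of the 9 genes past the threshold against DMSO, beside 0.311% of all genes in either direction and 12.9% at an unadjusted p under 0.05. ME1 (0.23, interval -0.03 to 0.48, adjusted p = 0.447) and SCD (0.17, interval -0.03 to 0.37, adjusted p = 0.464) had the largest differences. With FADS2 (0.10, adjusted p = 0.669) they were the 3 genes whose enzalutamide arrays lay above all DMSO arrays, as 13.5% of all genes did. ACSS2 was at 0.15, and ACLY, FASN, ELOVL6, ELOVL5 and ACACA lay between -0.06 and 0.03. The median was 0.03, against -0.01 over all genes. In the same comparison, 1 of the 6 measured prostate genes fell (TMPRSS2, by 1.06, adjusted p = 0.000604) and 1 rose (HOXB13, by 0.75, adjusted p = 0.00578). The other 4 did not pass, among them KLK3 at -0.42 (adjusted p = 0.0784), KLK2 at -0.44 (adjusted p = 0.181) and FOXA1 at 0.02.

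Adding enzalutamide to PF-543 gave negative differences for all 9 genes and passed for none, with 0.311% of all genes passing in either direction. Over all genes 51.3% of the differences were above 0. ACSS2 was lowest at -0.48 (interval -0.86 to -0.10, unadjusted p = 0.0168, adjusted p = 0.464), followed by ELOVL6 at -0.21 (adjusted p = 0.604), ACACA at -0.18 and ME1 at -0.16. SCD (-0.02) and FADS2 (-0.04) were nearest 0. The arrays did not overlap for 6 genes, against 6.99% of all genes as lower, and the median was -0.14, against 0.007 over all genes. All of these differences rest on the same 3 PF-543 arrays. Averaged over cells without and with PF-543, the enzalutamide effect was between -0.17 and 0.08 for the 9 genes and passed for none, beside 0.882% of all genes.

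**Figure D3:**
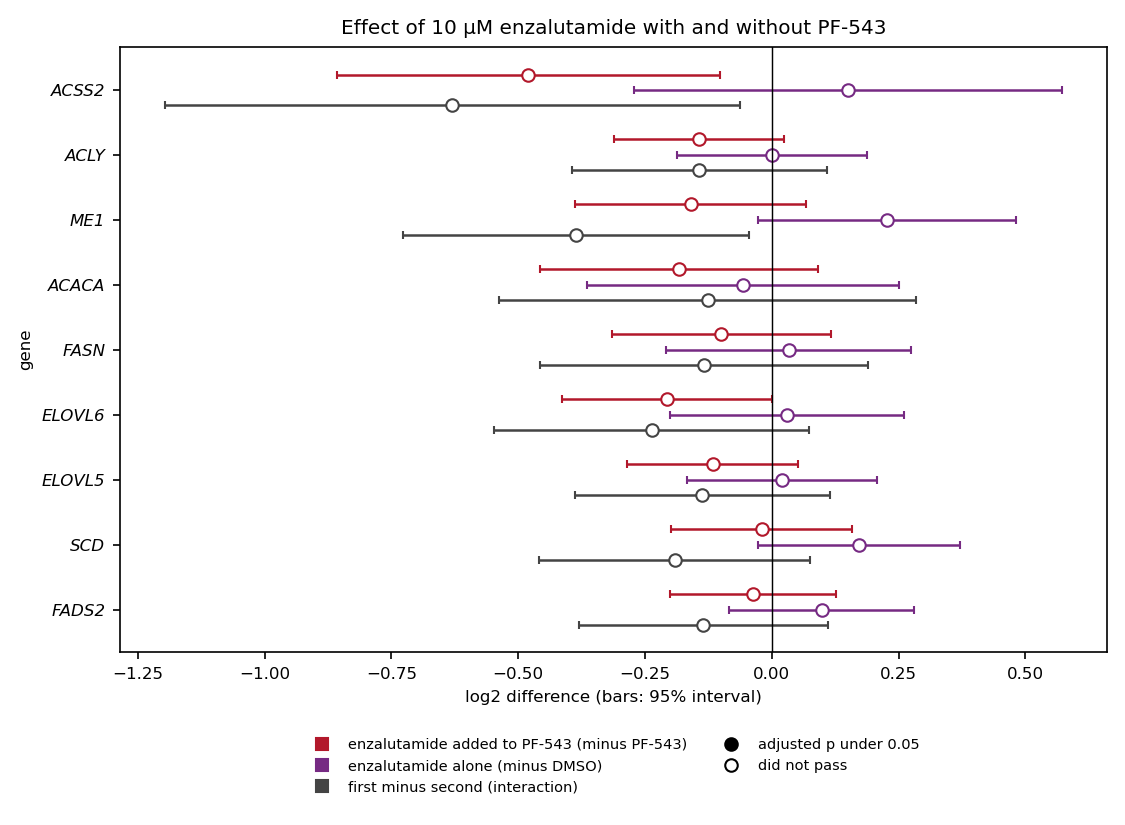
Log2 difference (x axis) of each gene (rows) for enzalutamide with PF-543 minus PF-543, for enzalutamide minus DMSO and for the first minus the second (the interaction), with 95% intervals as bars. Enzalutamide added to PF-543 gives values from -0.48 to -0.02, enzalutamide alone from -0.06 to 0.23, and the interaction lies below 0 for all 9 genes; no value passed.

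PF-543 and ABC294640 were given at the same dose and for the same time. In the direct comparison of the combinations, enzalutamide with PF-543 was higher than enzalutamide with ABC294640 for ACSS2 (1.10, SE 0.17, interval 0.73 to 1.48, adjusted p = 0.0358, 2.15-fold) and FASN (0.70, SE 0.10, interval 0.48 to 0.92, adjusted p = 0.0292, 1.62-fold). Of all genes 0.0905% passed as higher. ELOVL6 was at 0.56 (interval 0.36 to 0.77, adjusted p = 0.0557), SCD at 0.36 (adjusted p = 0.335) and ME1 at 0.36 (adjusted p = 0.467). ACLY, ACACA, ELOVL5 and FADS2 were at 0.19, 0.19, 0.14 and 0.11, with adjusted p of 0.656 to 0.799. The arrays were separate for 8 genes, all but ACACA, against 6.43% of all genes, and the median was 0.36, against 0.003 over all genes. Both calls were lost when any 1 of these 6 arrays was left out, with adjusted p of 0.0841 to 0.209 for ACSS2 and 0.0841 to 0.172 for FASN, and 0 of 9 genes then passed. Through the pooled spread the ACSS2 call was also lost without DMSO replicate 2 (adjusted p = 0.0697), either enzalutamide array (0.0564) or any 1 PF-543 array (0.0594 to 0.0683), and the FASN call without PF-543 replicate 1 (0.0512). In a fit to the 6 arrays alone both had an adjusted p of 0.134.

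Against enzalutamide, the combination with ABC294640 changed 0 of 9 genes past the threshold, with 0% of all genes called and 6.78% (1200 genes) at an unadjusted p under 0.05. The differences ran from -0.25 for ACSS2 (interval -0.68 to 0.17) to 0.12 for ELOVL6 (interval -0.11 to 0.35), and FASN was at -0.09 (interval -0.33 to 0.15). ELOVL5 was at -0.18 (interval -0.37 to 0.01, unadjusted p = 0.059, adjusted p = 0.746), with no overlap, as were ME1 and ACLY, against 10.2% of all genes as lower. Against DMSO the combination with ABC294640 also gave 0 of 9, from -0.16 for ELOVL5 (adjusted p = 0.334) to 0.15 for ELOVL6 (adjusted p = 0.485), beside 0.701% of all genes in either direction.

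The single ABC294640 array could be compared only with the spread borrowed from the other groups. It gave 0 of 9 genes against DMSO, from -0.04 for ACLY to 0.32 for ACSS2 (interval -0.21 to 0.85), with 0% of all genes called and 9.57% at an unadjusted p under 0.05. PF-543 against that array also gave 0 of 9, beside 0.017% of all genes. ELOVL6 was at 0.85 there (interval 0.56 to 1.14, adjusted p = 0.0904), ACSS2 at 1.16 (interval 0.63 to 1.69, adjusted p = 0.307) and FASN at 0.62 (interval 0.31 to 0.92, adjusted p = 0.371). Enzalutamide with ABC294640 against ABC294640 gave differences of -0.42 (ACSS2) to 0.08 (ELOVL6), and 0 of 9 passed, beside 0.0792% of all genes.

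**Figure D4:**
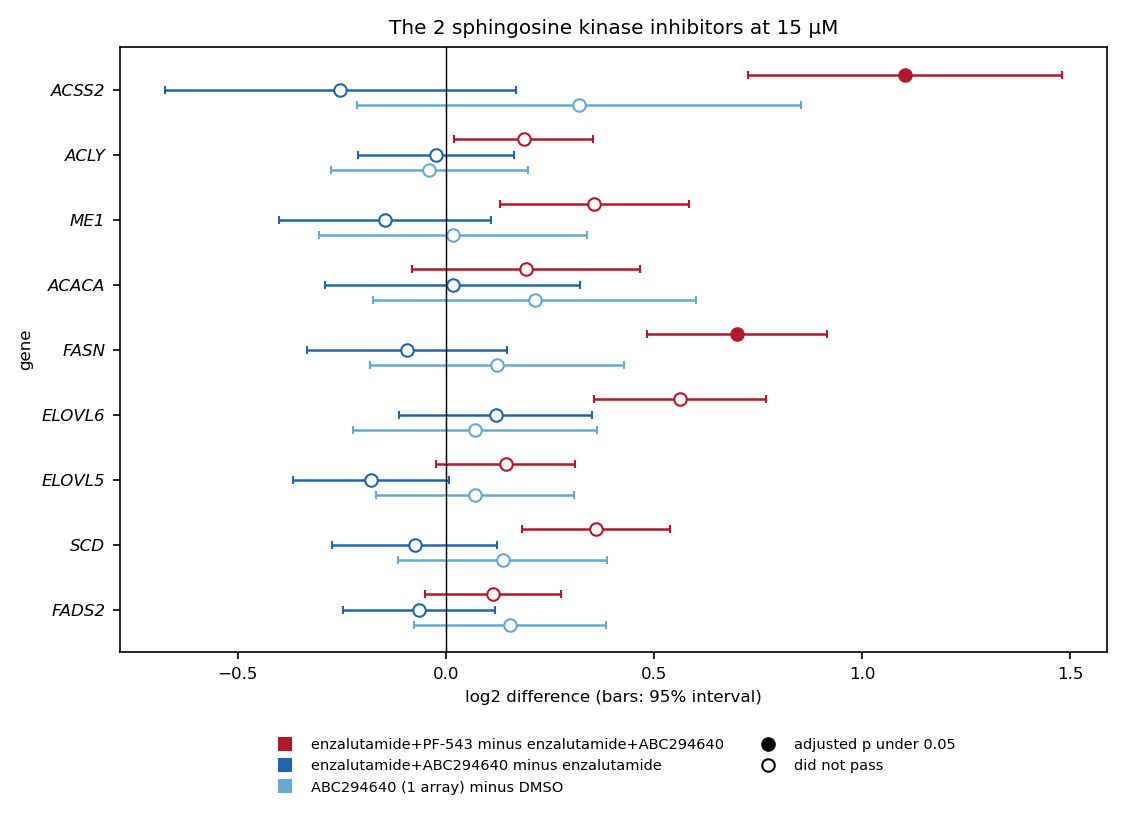
Log2 difference (x axis) of each gene (rows) for enzalutamide with PF-543 minus enzalutamide with ABC294640, for enzalutamide with ABC294640 minus enzalutamide and for the single ABC294640 array minus DMSO, with 95% intervals as bars. ACSS2 and FASN, at 1.10 and 0.70 between the combinations, are the filled points that passed; the values for ABC294640 run from -0.25 to 0.12 with enzalutamide and from -0.04 to 0.32 without it.

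In the order of the group means, PF-543 came first for all 9 genes. Enzalutamide with PF-543 came next for ACSS2, ACLY, FASN, ELOVL6, SCD and ME1, and its arrays did not overlap those of the next group. The share of all genes with such an order was not counted. For FASN and SCD the 2 groups with PF-543 overlapped, so their order is within the spread. For FADS2, ACACA and ELOVL5 the single ABC294640 array took the next place. The mean of the 9 genes' levels, each centred on its own mean over arrays, was 0.14, 0.23 and 0.22 in enzalutamide with PF-543, 0.37, 0.37 and 0.33 in PF-543, -0.19, -0.25 and -0.20 in enzalutamide with ABC294640, -0.10 in ABC294640, -0.18 and -0.10 in enzalutamide, and -0.15, -0.20 and -0.30 in DMSO. All 6 arrays with PF-543 were above 0 and all 9 without it were below 0.

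The genes varied together over the 15 arrays, which share treatment groups. Among the 36 pairs Pearson's r was 0.41 (ELOVL6 with ELOVL5) to 0.94 (FASN with ELOVL6), with a median of 0.75. ACSS2 was most like ACLY (0.93), SCD and ME1 most like ELOVL6 (0.93 and 0.90), FADS2 most like SCD (0.81), ACACA most like FASN (0.76) and ELOVL5 most like ACACA (0.68). Within groups the pairs had r from -0.85 to 0.68 with a median of 0.12 over 14 arrays, so most of the likeness lay between groups. Outside the list, the 5 genes most like the mean of the 9 were DHCR7 (0.97), the last step of cholesterol synthesis, ACSL1 (0.95), which activates long-chain fatty acids, INSIG1 (0.94), HMGCS1 (0.94), an early enzyme of the mevalonate pathway, and TRIM2 (0.93), a ubiquitin ligase. Without the 3 DMSO arrays these values were 0.97, 0.94, 0.97, 0.95 and 0.94 over 12 arrays. Within groups they were 0.77, -0.14, 0.07, -0.09 and 0.02.

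Beside the 9 genes, 5 lists of fatty acid metabolism, its supply and its control were set, among them fatty acid oxidation. Of 15 measured other genes of synthesis, elongation and desaturation, 0 passed for PF-543 against DMSO (median 0.04) or for PF-543 averaged (median 0.02). Of 12 measured genes that supply acetyl-CoA, citrate and NADPH, 0 passed in any of the 14 comparisons. Their median was 0.13 for PF-543 against DMSO and 0.17 for PF-543 averaged. In each, 10 of 12 were above 0, beside 47.9% and 49.1% of all genes. Of 13 measured genes of fatty acid oxidation 0 passed in any comparison, with medians of 0.01 and 0.05 in the same 2. The share of all genes past the threshold in either direction was at most 2.02% in a comparison (enzalutamide with PF-543 against DMSO), so a count of 0 in lists of this size is near that background. SCD5, another desaturase of the stearoyl-CoA class, was above the DMSO arrays without overlap in every treated group. Its difference from DMSO passed in enzalutamide with PF-543 (0.65, SE 0.13, adjusted p = 0.0245) and not in PF-543 (0.42), enzalutamide with ABC294640 (0.51), ABC294640 (0.49) or enzalutamide (0.45), and enzalutamide with PF-543 was 0.20 above enzalutamide (adjusted p = 0.783). ELOVL2, an elongase of very long polyunsaturated chains, was below DMSO without overlap in the 3 groups with enzalutamide. It passed in enzalutamide with ABC294640 (-0.67, SE 0.11, adjusted p = 0.0187) and not in enzalutamide with PF-543 (-0.40, adjusted p = 0.0908) or enzalutamide (-0.42, adjusted p = 0.191), and stood at 0.03 in ABC294640 and -0.10 in PF-543. Against enzalutamide, the combination with ABC294640 was at -0.25 (adjusted p = 0.765).

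Of 11 measured genes of fatty acid activation and uptake, ACSL1 alone passed for PF-543 against DMSO. It read 13.10, 13.02 and 13.11 in PF-543, against 12.12, 12.11 and 12.10 in DMSO, a rise of 0.97 (SE 0.09, adjusted p = 0.000559). It read 12.85, 12.79 and 12.77 in enzalutamide with PF-543, against 12.30 and 12.11 in enzalutamide, a difference of 0.60 (adjusted p = 0.114). The 6 arrays with PF-543 stood above all others. SLC27A5, a bile acid and fatty acid CoA ligase, fell by 0.59 (SE 0.13, adjusted p = 0.0426) for enzalutamide with PF-543 against DMSO. It was at -0.59 in PF-543 (adjusted p = 0.0729), -0.30 in enzalutamide with ABC294640, -0.92 in ABC294640 and -0.34 in enzalutamide, none of which passed, and at -0.25 for enzalutamide with PF-543 against enzalutamide (adjusted p = 0.735). The list's median for PF-543 averaged was 0.01.

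Of 10 measured genes that control lipid synthesis, INSIG1 passed for PF-543 both without and with enzalutamide. INSIG1, itself an SREBP target that restrains SREBP, read 14.59, 14.24 and 14.49 in PF-543, against 13.04, 13.04 and 13.00 in DMSO. It read 13.96, 14.04 and 13.88 in enzalutamide with PF-543, against 12.76 and 12.84 in enzalutamide, and 12.89, 12.56 and 12.51 in enzalutamide with ABC294640. The differences were 1.41 against DMSO (SE 0.12, adjusted p = 0.000228), 1.16 against enzalutamide (SE 0.13, adjusted p = 0.00656) and 1.31 between the combinations (adjusted p = 0.000467). The genes of the SREBPs did not pass: SREBF1 was at 0.16 (adjusted p = 0.438) and SREBF2 at 0.28 (adjusted p = 0.323) for PF-543 against DMSO. SREBF1 averaged 14.11 in PF-543, 14.15 in enzalutamide with PF-543 and 13.95 in DMSO. It averaged 14.24 in enzalutamide and 14.23 in enzalutamide with ABC294640, and read 14.19 on the ABC294640 array. MID1IP1, whose product helps acetyl-CoA carboxylase polymerise, rose by 0.53 (SE 0.12, adjusted p = 0.0365) for enzalutamide with PF-543 against DMSO, and was at 0.245 against enzalutamide (adjusted p = 0.697) and 0.19 for PF-543 against DMSO (adjusted p = 0.448), which did not pass. All 10 genes had positive averaged PF-543 differences, as 49.1% of all genes did, and 1 of the 10 (INSIG1) passed. The median of the 10 was 0.17, against -0.004 over all genes and 0.38 over the 9.

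**Figure D5:**
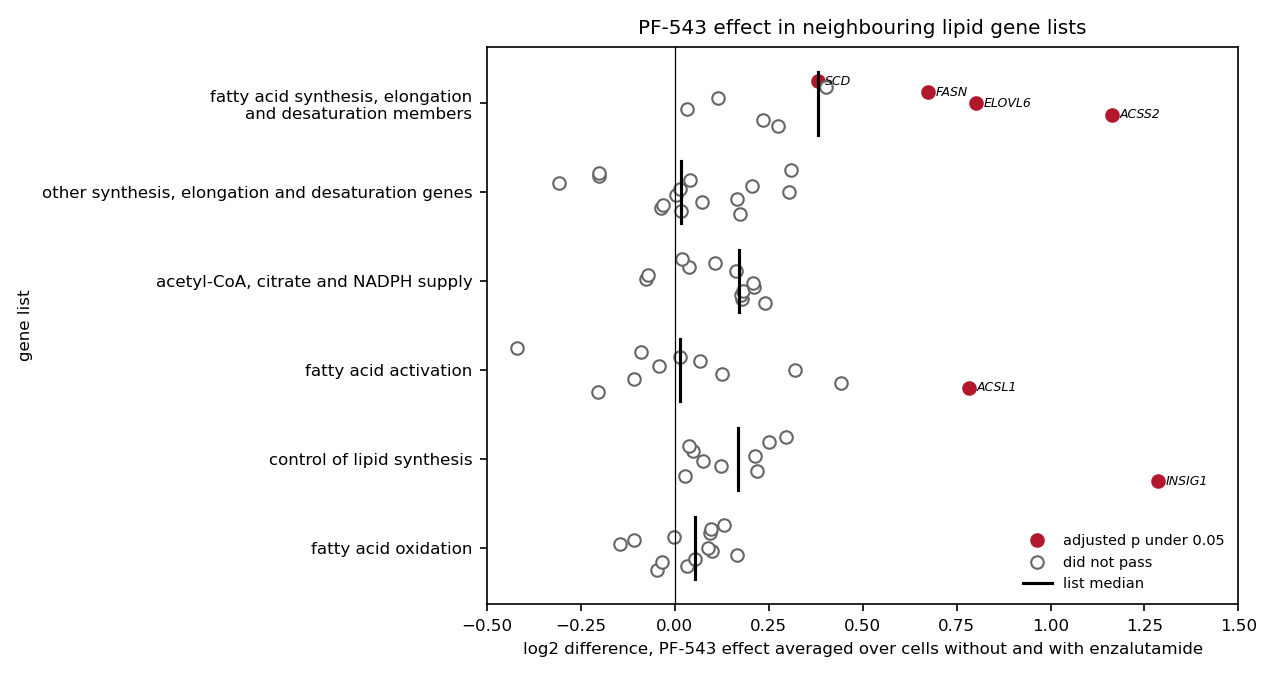
Log2 difference of the PF-543 effect averaged over cells without and with enzalutamide (x axis) for every measured gene of the 9 and of the 5 lists around them (rows), with list medians as bars. The 9 genes have a median of 0.38, and INSIG1 at 1.29 and ACSL1 at 0.78 stand out of lists whose medians are 0.01 to 0.17.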

How the data were processed

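Expression was measured on 15 Affymetrix whole-transcript arrays of C42B cells. The deposited values are log2 signals per probe set that the authors made with RMA in Transcriptome Analysis Console 4.02, per the submitters' processing notes. RMA is meant to bring all arrays to a common distribution, which can hide a shift common to most genes. The deposited values still differed in spread. Their SD over probe sets was 3.29 to 3.31 for DMSO and 3.32 to 3.36 for treated cells, with no overlap. The part of this spread in each gene's difference from DMSO was not tested. The RMA variant, genome build and annotation release are each not given in the sources used here. Array medians lay between 6.71 and 6.76. Scanner files were not used, and detection above background was not assessed. The number of arrays limits the precision.

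Of 21448 probe sets, 17709 had 1 gene symbol, 0 several, and 3739 were unnamed here; all 17709 matched RefSeq by Entrez identifier. The probe set with the highest mean was kept for the 20 genes with several, which left 17687 genes. Group means were fitted to all 15 arrays with limma 3.58.1 in R 4.3.3 (9 residual and 3.82 prior degrees of freedom), with 14 comparisons, each with p-values adjusted over all genes (Benjamini-Hochberg) at a threshold of 0.05. The lone array of ABC294640 borrows the other groups' spread. Intervals are 95% and unadjusted. The test was checked on simulated data.

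The members, lists and tests were chosen with earlier results of these data known. All members are named; of the 5 pathway lists, every gene past the threshold in any comparison (at most 6 a list), a rule that does not extend to the cell type markers, with SREBF1, SREBF2 and INSIG1 in any case; and the 5 genes most like the members' mean. Alternatives were other normalizations, filters, priors, array weights, the arrays of a comparison alone, a replicate block and leaving out each array. Same-numbered arrays of different groups did not deviate together: over 26 pairs r was -0.04 to 0.07. Promoter windows came from RefSeq on GRCh38.p14. Python 3.11.15 and matplotlib 3.10.9 drew the figures.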

Additional observations from a re-analysis of the deposited data

How the results depend on the processing

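Of the 9 genes' differences with an unadjusted p under 0.05, recomputed under every alternative, 857 values kept their direction and side of the threshold, 55 lost a call, 29 gained one and 0 changed sign. Many alternatives could not move a difference: another prior, or an array left out of a group outside the comparison, leaves the difference itself unchanged. The 857 also include values that missed the threshold before and after. The count of 0 sign changes therefore says little. With a robust and trended prior the number of the 9 genes past the threshold was 8 for PF-543 against DMSO (5 as reported), 7 for enzalutamide with PF-543 against DMSO (4), 4 for enzalutamide with PF-543 against enzalutamide (0), 4 between the combinations (2), 6 for PF-543 against ABC294640 (0) and 8 for PF-543 averaged (4). The share of all genes past the threshold under that prior is not given here, so these counts have no background beside them. A fit to only the arrays of a comparison leaves fewer degrees of freedom. There the number of the 9 genes was 1, 0 and 0 for PF-543 against DMSO, enzalutamide with PF-543 against DMSO and the combinations. For PF-543 averaged, ACSS2, FASN, ELOVL6 and SCD kept their calls in such a fit (adjusted p of 0.00118 to 0.0481). Without the dimmest 25% of genes, ELOVL6 alone passed for enzalutamide with PF-543 against enzalutamide (1). Its difference for PF-543 against the single ABC294640 array stayed at 0.85. In the same setting ELOVL6 gained a call between the combinations (adjusted p = 0.0275). ME1 gained calls for enzalutamide with PF-543 against DMSO (0.0323) and for PF-543 averaged (0.0295). With array weights ELOVL6 passed in the comparison against enzalutamide (1) and between the combinations (adjusted p = 0.0354). Leaving out 1 array at a time gave 3 to 5 for PF-543 against DMSO, 2 to 5 for enzalutamide with PF-543 against DMSO, 0 to 2 between the combinations and 3 to 5 for PF-543 averaged, and 0 for all other comparisons. Without the 3 DMSO arrays, a choice made after seeing the data, 1 gene passed between the combinations. The replicate numbers do not pair the arrays (3 of 14 arrays were most like their own number). With the number as a replicate block, 3 genes passed for PF-543 against DMSO, SCD and ME1 being lost at adjusted p of 0.0539 and 0.0534, and 0 between the combinations; the ABC294640 array has no number and was left out. The cause of these changes was not tested. Quantile, median and cyclic loess normalization and all probe sets kept every count within 1.5 times.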
